A study of Mus musculus with 14 samples.

Results

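The C/EBP family and the proteins named after it are represented here by 6 genes: Cebpa, Cebpb, Cebpd, Cebpg, Cebpz and Ddit3. They were taken by symbol from a table of 55433 RNA rows, in which 6 of 6 were found, and from a table of 22470 gene bodies with chromatin scores, in which 5 were found (Cebpd was not analysed there). The set was put together with the RNA difference between the conditions in view, above all the difference and the spread of Cebpb. The members' RNA values are therefore given as a description, without a test.

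The cells came from a tumor of C57BL/6 mice and were used between passages 6 and 8. They carried either a guide RNA labelled sgNSD3, against the histone H3 lysine 36 methyltransferase gene Nsd3, or a control guide RNA labelled sgControl. Of 14 samples, 6 were of total RNA, 3 per condition, and the others were of H3K36me2 (4), H3K27me3 (2) and IgG (2) chromatin. The sources used here do not name the tumor type, how Cas9 and guides were delivered, or whether a condition was 1 clone or a pool. Separate cultures are not stated for the 3 RNA replicates, so p-values cover only replicate spread of a possibly technical kind. Nsd3 RNA was higher in the libraries labelled sgNSD3, at 21989, 22012 and 21837 normalized counts, against 14568, 14402 and 14675 in the libraries labelled sgControl (limma adjusted p = 5.86e-14). This goes against the label if a loss of Nsd3 mRNA is looked for, and protein was not analysed here, so each direction given here rests on the labels of the libraries.

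C/EBP proteins are transcription factors of the basic leucine zipper class. They bind DNA as dimers, with each other or with relatives such as ATF4 and the AP-1 proteins, and they are known for driving the differentiation of adipocytes, hepatocytes and myeloid cells and for inflammatory and stress responses. C/EBP alpha (Cebpa) is linked to differentiation and cell cycle exit, and C/EBP beta (Cebpb) and delta (Cebpd) are induced by cytokines and hormones. C/EBP gamma (Cebpg) lacks a strong activation domain and pairs with the others and with ATF4. CHOP (Ddit3) is the stress-induced member that blocks many C/EBP dimers. Cebpz encodes a CCAAT-binding protein that shares the name but is not a leucine zipper protein, and its yeast relative works in assembly of the large ribosomal subunit.

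Of the 6 genes, 4 had a promoter window in the RefSeq-derived table (GRCm38.p6, from 250 bases before to 50 after the annotated start). The window of Cebpb is shown because it is the member with the large RNA difference, and that of Cebpg because it is a member whose RNA was level and whose window differs in motifs. Capitals mark letter matches on either strand to TGACG, the core of the cyclic AMP response element (CRE), and to CCAAT, the box bound by NF-Y. They also mark TATAAA, the TATA box, on the gene's strand. None of these matches overlap. Cebpb lies at chr2:167688665-167688964 on the plus strand and Cebpg at chr7:35056517-35056816 on the minus strand.
Cebpb: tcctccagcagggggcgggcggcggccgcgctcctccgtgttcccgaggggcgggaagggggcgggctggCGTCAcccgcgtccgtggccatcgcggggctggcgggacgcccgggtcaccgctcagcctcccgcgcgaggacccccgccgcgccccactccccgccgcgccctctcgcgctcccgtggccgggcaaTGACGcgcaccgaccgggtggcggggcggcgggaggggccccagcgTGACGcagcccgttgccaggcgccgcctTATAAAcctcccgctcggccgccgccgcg
Cebpg: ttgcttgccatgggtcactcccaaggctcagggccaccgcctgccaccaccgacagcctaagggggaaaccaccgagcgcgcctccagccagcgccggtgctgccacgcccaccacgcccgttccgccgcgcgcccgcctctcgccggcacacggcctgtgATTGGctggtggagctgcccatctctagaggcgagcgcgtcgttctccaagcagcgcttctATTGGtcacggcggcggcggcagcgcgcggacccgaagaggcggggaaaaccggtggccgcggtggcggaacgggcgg
The Cebpb window held 3 CRE cores, which CREB and ATF proteins bind, at -180, -53 and -7 from the annotated start. It also held 1 TATAAA at 22, downstream of that start. The CRE core occurred in 20.8% of 32851 promoter windows and TATAAA, read on the gene's strand, in 8.32%. The Cebpg window held 2 CCAAT boxes, both on the opposite strand, at -89 and -28, and CCAAT on either strand occurred in 37.4% of windows. The Cebpa window held a TATAAA at -30, and the Ddit3 window held a CCAAT box at -77 and an AP-1 site (TGANTCA, in 7.81% of windows) at -242. The GC content was 80.7% for Cebpb, 71.7% for Cebpg, 67.3% for Cebpa and 60.7% for Ddit3, against a median of 52.7% over all windows. None of these 4 windows held the C/EBP core TTGCNNAA, found on either strand in 10.8% of windows, or the C/EBP-ATF site TGATGNAA, found in 3.97%. A letter match is not evidence of binding, and no match says only that these letters are not in the window.

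Cebpb was the only one of the 6 genes whose conditions did not overlap. It had 2315, 2488 and 2434 normalized counts (recovered reads divided by the library's size factor) in libraries labelled sgNSD3, replicates 1, 2 and 3, against 1400, 1033 and 2004 in libraries labelled sgControl. The libraries labelled sgNSD3 lay close together, within 1.07-fold, while those labelled sgControl spanned 1.94-fold, with replicate 2 lowest and replicate 3 nearest to the other condition. The mean was 2412 ± 88.7 normalized counts in libraries labelled sgNSD3 and 1479 ± 491 in libraries labelled sgControl (SD, n = 3 each), a 1.63-fold difference, and the mean log2(normalized count + 1) differed by 0.76 ± 0.28 (SE). The lowest library labelled sgNSD3 was 1.15 times the highest labelled sgControl, and conditions did not overlap for 28.5% of the 18263 genes tested.

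The size of the Cebpb difference depended on which sgControl library was included. It was 1.98-fold without replicate 3, 1.59-fold without replicate 1 and 1.42-fold without replicate 2. Leaving out any 1 library labelled sgNSD3 gave 1.61-fold to 1.66-fold. In the fit over all tested genes 1 of the 6 members, Cebpb, was called higher and none lower, where 11.9% of genes were called in either direction and 5.44% were called higher. Since this contrast chose the members, nothing is read from that count.

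**Figure D1:**
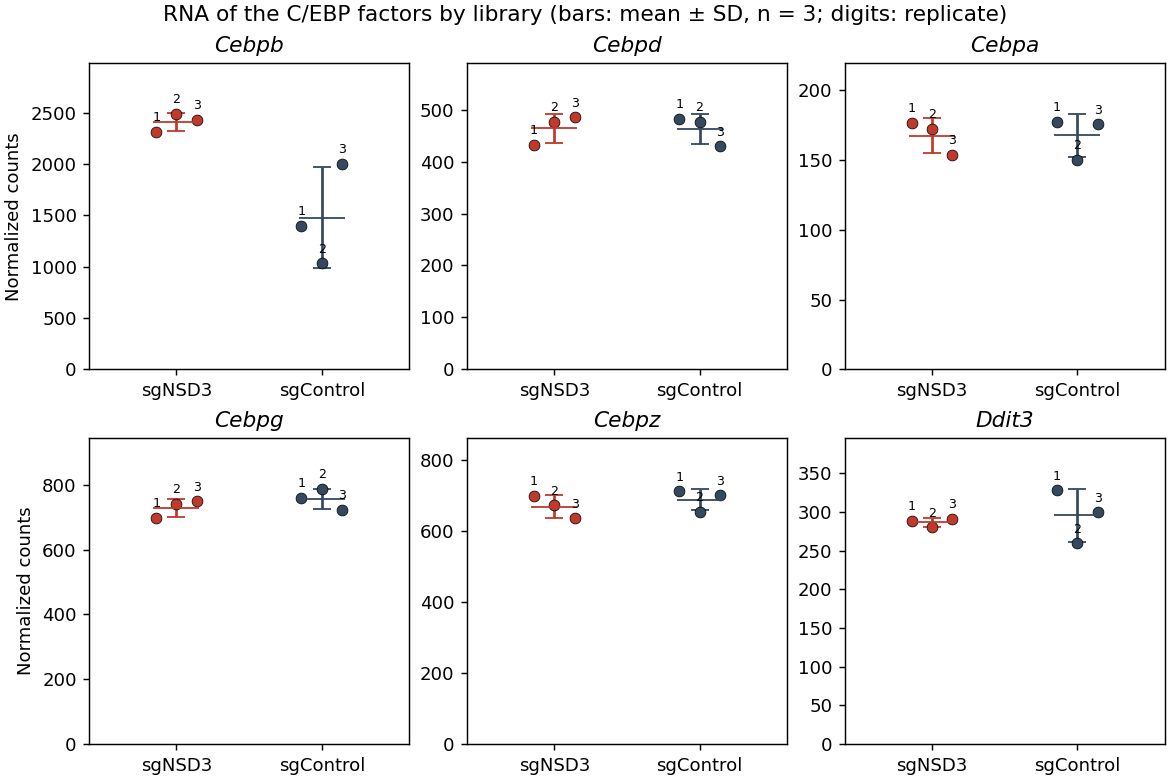
Normalized counts of the 6 genes in each RNA library (points, numbered by replicate), with the mean and SD of the 3 libraries labelled sgNSD3 (left, red) and the 3 labelled sgControl (right, dark blue); each vertical axis starts at 0 and has its own scale. Cebpb lies between 2315 and 2488 in libraries labelled sgNSD3, above all 3 labelled sgControl, and the conditions overlap for the other 5 genes.

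The spread of Cebpb was unlike that of the other members. Its coefficient of variation (CV, the SD as a percent of the mean) was 3.68% among libraries labelled sgNSD3 and 33.2% among libraries labelled sgControl, where counting error alone gives 2.03% and 2.68%. Of 3205 tested genes within 2-fold of its level, 1 had a higher CV among libraries labelled sgControl, Gm23935 at 55.8%, and the median was 3.39%. Only 5 of the 3205 genes exceeded 20%, and the others besides Gm23935 were the mitochondrial transcripts mt-Nd2 (24%) and mt-Nd6 (22.6%), Tmem189 (21.4%) and the ribosomal protein gene Rpl39 (21.1%). These genes were singled out after their values were seen. Over all genes the libraries labelled sgControl were also less alike than those labelled sgNSD3. The chi-square per degree of freedom between pairs was 1.328 to 1.455 among libraries labelled sgNSD3 and 2.905 to 9.953 among libraries labelled sgControl. It was 7.387 to 8.321 between the conditions. Within sgControl, replicates 2 and 3 were closest (2.905), the pair between which Cebpb differed most. Replicate 1 stood at 6.618 from replicate 2 and 9.953 from replicate 3. Transcripts of the ribosomal RNA locus (Gm26917 and Gm42418) took 9.467%, 9.314% and 9.373% of counts in libraries labelled sgNSD3, against 10.571%, 8.423% and 7.99% in libraries labelled sgControl, and their part in the Cebpb spread was not tested. With each library scaled by its total counts the sgControl CV of Cebpb was 34.3%.

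The CVs of the other 5 members lay between 2.05% and 11.7%. Ddit3 had the widest gap between the conditions, at 2.05% among libraries labelled sgNSD3 and 11.7% among libraries labelled sgControl, and the sgControl value was above that of 88% of 4347 genes of like level. Cebpa, with the fewest counts, had 7.4% and 9.08%, against counting errors of 7.69% and 7.75%. Cebpg and Cebpz lay between 3.76% and 4.75% in both conditions, close to their counting errors of 3.65% to 3.85%.

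**Figure D2:**
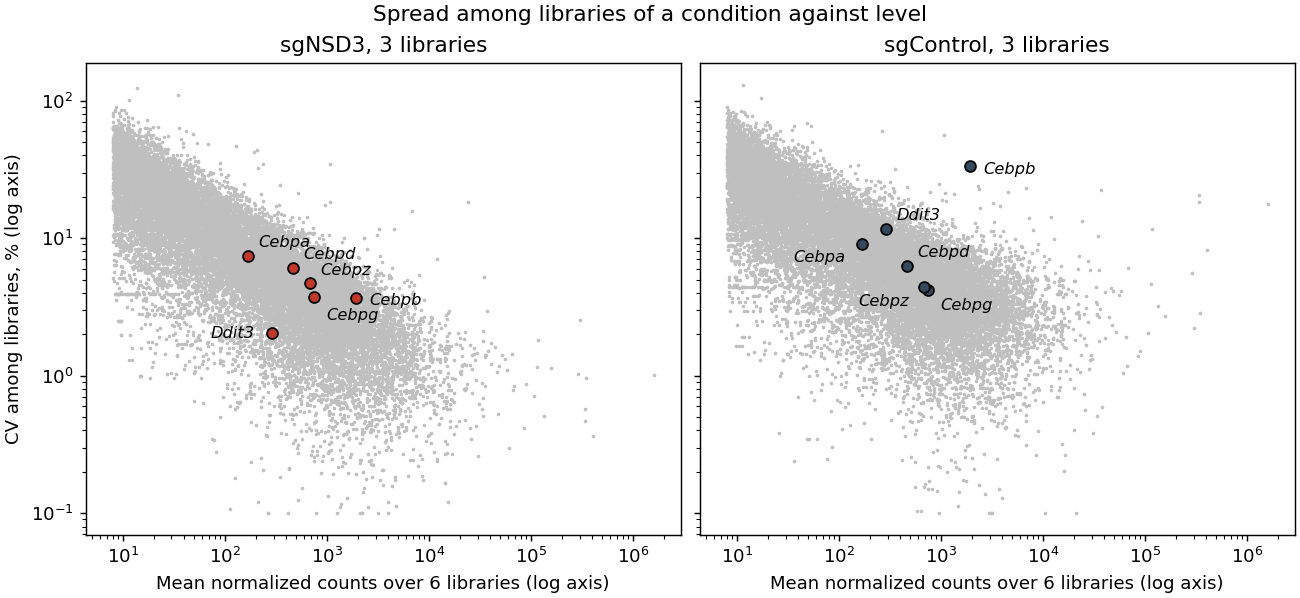
CV among the 3 libraries of a condition (percent, log axis; values under 0.1 are drawn at 0.1) against the mean normalized count over 6 libraries (log axis), for libraries labelled sgNSD3 (left) and sgControl (right); grey points are all other tested genes. Cebpb sits within the cloud at 3.68% in the left panel and above it at 33.2% in the right one.

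Tmem189, which encodes the desaturase that makes plasmalogen lipids, is also the closest protein-coding gene below Cebpb on chromosome 2 (167643225 to 167661544, GRCm38), with a gap of 27.4 kb to the Cebpb gene (167688915 to 167690432). It had 1240, 1268 and 1216 normalized counts in libraries labelled sgNSD3, against 837.7, 805.7 and 1167 in libraries labelled sgControl. As for Cebpb, sgControl replicate 2 was lowest and replicate 3 highest, close to the other condition. That order of the sgControl libraries held for 15.1% of all tested genes. Tmem189 was 1.32-fold higher in libraries labelled sgNSD3 (log2 difference 0.43 ± 0.17, SE; limma adjusted p = 0.000532), and it was called in each fit that left out 1 library (highest adjusted p = 0.0103). By similarity of profile to Cebpb it ranked 73 of 18262 tested genes.

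A window of 500 kb on each side of the Cebpb start was chosen after Tmem189 had been seen. Of 15 other tested genes with their midpoint in it, 1 rose (Tmem189), where 5.44% of all tested genes rose, so the count is near the background. Ube2v1, Spata2 and Pard6b were also higher in libraries labelled sgNSD3 without overlap but did not pass the test (limma adjusted p = 0.0973, 0.173 and 0.174). Of all tested genes, 14% were higher without overlap. Ptgis was lower without overlap, at 6474, 6659 and 6603 normalized counts in libraries labelled sgNSD3, against 7103, 7183 and 6693 in libraries labelled sgControl (limma adjusted p = 0.0641). Ube2v1, a ubiquitin-conjugating enzyme variant 56.9 kb away, had 49.61, 51.78 and 47.9 normalized counts in libraries labelled sgNSD3, against 30.29, 42.11 and 34.51 in libraries labelled sgControl. The noncoding RNA A530013C23Rik, which starts 327 bases beyond Cebpb, had means of 59.53 ± 8.43 and 61.82 ± 3.65 normalized counts in libraries labelled sgNSD3 and sgControl (SD, n = 3 each). Ptpn1, a tyrosine phosphatase 240 kb away, had means of 1542 ± 71 and 1505 ± 17.7 in the same order. Snai1, a repressor of epithelial genes 146 kb away, had 275.8 ± 10.3 and 292.9 ± 27.8.

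**Figure D3:**
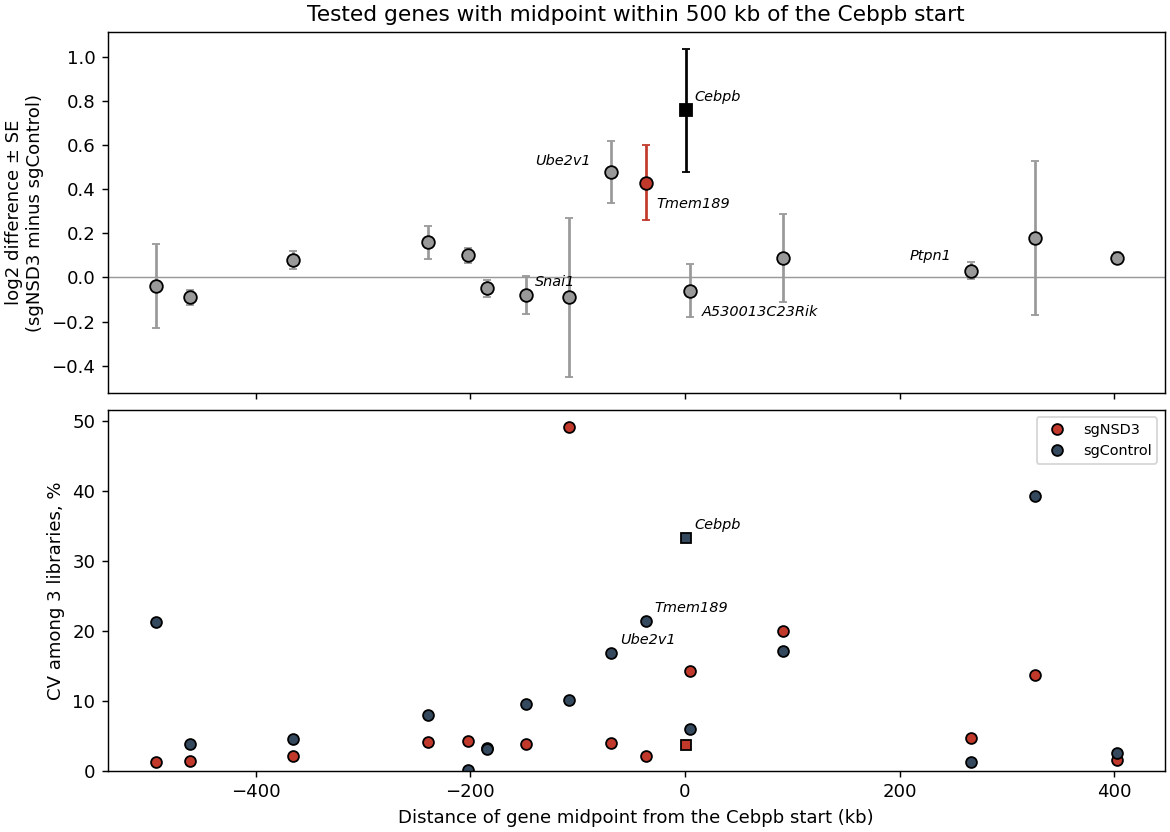
Tested genes with their midpoint within 500 kb of the Cebpb start, placed by that distance (kb): log2 difference, sgNSD3 minus sgControl, ± SE (top; black square Cebpb, red called higher, grey not called) and CV among the 3 libraries of each condition (bottom, percent). Cebpb and Tmem189 stand at 0.76 and 0.43 in the top panel and at 33.2% and 21.4% among libraries labelled sgControl in the bottom one.

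The genes whose profile over the 6 libraries was most like that of Cebpb were sought among 11728 others with at least 32 normalized counts on average, predicted symbols left out. Likeness was the root mean square difference between log2(normalized count + 1) profiles, each centred on the gene's mean. The 8 closest were Thy1 (0.0886), Ntn3 (0.142), Cnrip1 (0.147), Car12 (0.148), Perp (0.165), Als2cl (0.167), Pcdhga11 (0.169) and Unc5c (0.173), where the median gene was at 0.482. The other 5 C/EBP genes lay between 0.445 and 0.512. Thy1, a surface glycoprotein of fibroblasts, neurons and T cells, had 87.84, 88.21 and 94.82 normalized counts in libraries labelled sgNSD3, against 56.41, 44.02 and 75.1 in libraries labelled sgControl. Car12, a carbonic anhydrase, had 213.9, 192.7 and 209.2, against 120.1, 109.1 and 160.4. The values of the 8 genes lay between 19.14 and 213.9 normalized counts, well under Cebpb, so counting error is a larger part of their profiles. That they share the order of the sgControl libraries follows from how they were chosen.

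**Figure D4:**
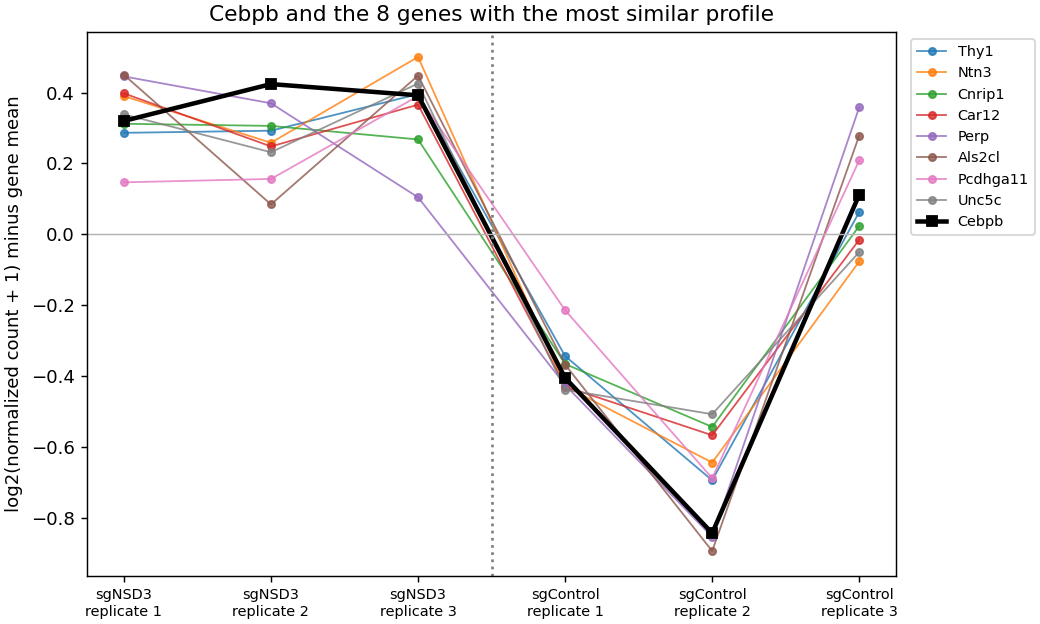
log2(normalized count + 1) minus the gene's own mean over 6 libraries, for Cebpb (black squares) and the 8 genes with the most similar profile (coloured points; lines only join the values of a gene). Cebpb and the 8 genes are lowest in sgControl replicate 2.

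The other leucine zipper members were level between the conditions. Cebpd had 432, 475.6 and 484.9 normalized counts in libraries labelled sgNSD3, against 481.5, 476.6 and 429.3 in libraries labelled sgControl. Cebpa had 176.7, 172.6 and 153.5, against 177.6, 150.2 and 175.6. Cebpg had 697.6, 740.2 and 748.8, against 759.4, 786.6 and 723.6. For these 3 genes the ranges of the conditions overlapped, and the ratio of means, sgNSD3 over sgControl, was 1.0 for Cebpd, 0.999 for Cebpa and 0.963 for Cebpg. Ddit3 had 288.3, 280 and 291.3 normalized counts in libraries labelled sgNSD3, against 328, 259.3 and 299.4 in libraries labelled sgControl, so the values labelled sgNSD3 fell within the wider sgControl range.

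Cebpz, the member that is not a leucine zipper protein, had 697.6, 671.2 and 634.4 normalized counts in libraries labelled sgNSD3, against 710.3, 652.6 and 699.3 in libraries labelled sgControl. Over the 5 genes other than Cebpb, the log2 difference lay between -0.05 and 0.01, with standard errors of 0.047 for Cebpg to 0.1 for Ddit3. Differences of this size could not be told from 0 at 3 libraries per condition, which does not show that the genes were equal. All 6 members passed the filter of 8 normalized counts in both conditions. Cebpe, the granulocyte C/EBP that is not among the members, had 0 reads in libraries labelled sgNSD3 and 1, 3 and 0 in libraries labelled sgControl.

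Cebpa, Cebpb and Cebpd have no introns, so their levels can be set against each other per kb of gene. In libraries labelled sgNSD3 Cebpb averaged 1589 ± 58.4 normalized counts per kb, Cebpd 205 ± 12.5 and Cebpa 63.6 ± 4.7 (SD, n = 3 each). In libraries labelled sgControl Cebpb averaged 974 ± 323, Cebpd 205 ± 12.8 and Cebpa 63.7 ± 5.78 per kb. The order was the same in each library, and neighbours in it did not overlap, since the lowest Cebpb value was 680 per kb, the highest Cebpd value 215 and the highest Cebpa value 67.4. The lengths are RefSeq spans, and the sources used here do not name the annotation used for counting.

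Several members share bases with other genes, and the counting is not stated to use strand. In RefSeq, Cebpz overlaps Cebpzos, which had means of 98.15 ± 10.7 normalized counts in libraries labelled sgNSD3 and 101.4 ± 2.62 in libraries labelled sgControl (SD, n = 3 each). Ddit3 overlaps Mars1 (listed as Mars) at one end and Mbd6 at the other, Cebpd overlaps Spidr, and Cebpg overlaps Gm45095. Of these, Cebpzos, Mars, Mbd6 and Spidr were tested and none was called. Cebpg and Cebpa lie 62.7 kb apart on chromosome 7. The C/EBP beta protein is made in long activating and short inhibitory forms from the same mRNA, which gene-level counts do not separate.

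In the authors' deposited table of gene bodies each gene has 1 signed score for H3K27me3 and 2 for H3K36me2, and nothing in it names the conditions compared. No direction between the conditions can therefore be read from them. In the authors' deposited table Cebpb had H3K36me2 scores of 0.0528 and 0.395, which lie above 39.2% and 99% of all gene bodies, and an H3K27me3 score of -0.0721, above 18%. In that authors' deposited table Cebpz was high in both H3K36me2 columns, at 0.18 and 0.311 (above 93.8% and 96.2% of gene bodies), and 0.534% of gene bodies were above it in both. Cebpg was low in both columns of the authors' deposited table, at 0.00693 and -0.00941 (above 13.7% and 4% of all gene bodies, and above 10% and 2.3% of 4208 gene bodies of like RNA level), with 0.93% of gene bodies below it in both. Cebpa stood at 0.0898 and 0.303 in the authors' deposited table (above 59.1% and 95.7%), and Ddit3 at 0.039 and 0.1 (above 29.4% and 39%).

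Cebpb and Cebpa thus ranked far higher in the second H3K36me2 column than in the first, while Cebpz, Cebpg and Ddit3 held similar places in both. In the authors' deposited table the H3K27me3 scores of the 5 genes lay between -0.0721 for Cebpb and -0.0257 for Ddit3, where the median gene body had -0.0258 and 31.5% were above 0. Against 2822 gene bodies within 2-fold of its 1518-base span, Cebpb ranked above 50% and 99.4% for H3K36me2 in the authors' deposited table, a background chosen after the values were seen. Tmem189 had H3K36me2 scores above 61.4% and 95.8% of gene bodies in the same authors' deposited table. A high place in the second column was not particular to it. Uncalled genes of the 500 kb window ranked there from above 1.9% for Ptpn1 to above 99.6% for B4galt5.

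Dimer partners of the family moved in both directions. Of 22 listed bZIP genes 20 were tested, 4 rose and 3 fell in libraries labelled sgNSD3, with a median log2 difference of 0.07, against 0.0 over all tested genes, of which 5.44% rose and 6.44% fell. Under quantile normalization 7 rose and 1 fell. The AP-1 genes Fosb and Fos rose 1.16-fold and 1.12-fold (limma adjusted p = 5.61e-05 and 0.000523). Fosb averaged 23437 ± 433 normalized counts in libraries labelled sgNSD3 and 20198 ± 1200 in libraries labelled sgControl (SD, n = 3 each). Atf5, a stress-induced factor, fell 1.14-fold and Hlf, a circadian PAR factor, fell 1.58-fold (limma adjusted p = 0.0366 and 0.0417). The call of Atf5 was lost under quantile normalization, without sgNSD3 replicate 2 or 3 and without sgControl replicate 1 or 3. The call of Hlf was lost with no filter on low values and without sgNSD3 replicate 2 or 3 or any 1 sgControl replicate.

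Among 30 genes of the signals that act on Cebpb and Cebpd, all tested, 5 rose and 2 fell. This was 23.3% called, against 11.9% of all tested genes. The median log2 difference was 0.01, and 6 rose and 1 fell under quantile normalization. Those named by the largest change were receptors and coactivators. Il6ra, the interleukin 6 receptor, had 150.9, 188.9 and 211.2 normalized counts in libraries labelled sgNSD3, against 127.4, 148.3 and 131.9 in libraries labelled sgControl (1.35-fold, limma adjusted p = 0.0166). Lifr, the receptor for leukemia inhibitory factor, rose 1.14-fold (limma adjusted p = 0.000463), as did the CREB coactivators Crtc1 and Crtc3 (adjusted p = 0.00523 and 0.00865, each 1.14-fold). The call of Il6ra was lost without sgNSD3 replicate 2 or 3 and that of Crtc3 without sgNSD3 replicate 1. The 2 that fell, named here after their values were seen, were Mapk3 and Nras. They fell 1.11-fold and 1.09-fold (limma adjusted p = 0.00467 and 0.0254). The call of Nras was lost under quantile normalization, with limma voom and without sgControl replicate 2 or 3 or any 1 sgNSD3 replicate. Of 18 tested cofactors and modulators, the acetyltransferase gene Ep300 rose 1.08-fold and the deacetylase gene Hdac1 fell 1.12-fold (limma adjusted p = 0.027 and 0.0106), with a median of -0.01 over the list. The call of Ep300 was lost with no filter on low values, with limma voom and without sgControl replicate 1 or any 1 sgNSD3 replicate, and that of Hdac1 without sgNSD3 replicate 1.

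Genes of adipocyte differentiation, the process in which Cebpb acts upstream of Pparg and Cebpa, included Pparg. Pparg, the nuclear receptor that directs fat cell formation, had 73.38, 76.71 and 71.36 normalized counts in libraries labelled sgNSD3, against 25.07, 29.66 and 27.4 in libraries labelled sgControl. The groups were well apart and Pparg was 2.7-fold higher (log2 difference 1.4; limma adjusted p = 2.62e-06), without the sgControl spread seen for Cebpb. Of 22 listed genes 11 were tested, 5 rose and 2 fell (63.6% called, against 11.9% of all tested genes), with a median log2 difference of 0.11. Lpl, the lipoprotein lipase gene, rose 1.25-fold and Klf4, an early inducer of Cebpb in mouse preadipocytes, 1.17-fold (limma adjusted p = 0.000291 and 1.12e-05). Plin2, which coats lipid droplets, fell 1.21-fold (limma adjusted p = 0.000229). Cebpa, the other target in this cascade, was level as given above.

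Fat cell products were nearly absent in both conditions. The 7 adipocyte markers, among them Adipoq, Plin1, Lep and Fabp4, summed to 7.234 to 19.18 normalized counts per library labelled sgNSD3 and 11.48 to 18.8 per library labelled sgControl, and none reached the filter. The other called genes of the differentiation list, named here after their values were seen, were Egr2 and Scd1, which rose 1.19-fold and 1.08-fold (limma adjusted p = 0.00109 and 0.0171), and Zfp423. Zfp423 averaged 4.63 ± 0.702 normalized counts in libraries labelled sgNSD3 and 15.33 ± 2.47 in libraries labelled sgControl (SD, n = 3 each). It passed the filter of 8 only through the libraries labelled sgControl, so it had to be lower in the others, and its place among the 2 genes that fell is not read as a result. The call of Scd1 was lost without any 1 sgNSD3 replicate.

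Inflammatory and acute phase genes, many with known C/EBP sites, did not move one way. Of 27 listed 16 were tested, 1 rose and 3 fell (25% called, against 11.9% of all tested genes), with a median log2 difference of 0.03. Cxcl1, a neutrophil chemokine, had 1006, 968.4 and 974.6 normalized counts in libraries labelled sgNSD3, against 634, 739.7 and 671.9 in libraries labelled sgControl, a 1.44-fold rise (limma adjusted p = 1.05e-07). Within the sgControl libraries Cxcl1 was highest in replicate 2, where Cebpb was lowest. Ccl2, a monocyte chemokine, fell 1.26-fold, Mmp13, a collagenase, 1.26-fold and Ptgs2, the inducible cyclooxygenase, 1.11-fold (limma adjusted p = 3.26e-06, 4.15e-05 and 0.00245). Il6 had 45.47, 43.15 and 58.65 normalized counts in libraries labelled sgNSD3, against 47, 69.86 and 68 in libraries labelled sgControl (limma adjusted p = 0.295), and Tnf and S100a9 had no reads.

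Among the stress genes around Ddit3 both directions were found. Of 18 tested genes of the ATF4 and CHOP response 2 rose and 1 fell (16.7% called, against 11.9% of all tested genes), with a median log2 difference of -0.01 (2 rose and 0 fell under quantile normalization). Atf4, the factor that induces Ddit3, fell 1.09-fold, Vldlr, a lipoprotein receptor, rose 1.23-fold and Bcl2l11, which encodes the death protein BIM, rose 1.12-fold (limma adjusted p = 0.0151, 0.000264 and 0.0151). The call of Atf4 was lost without sgNSD3 replicate 1 or 3 and under quantile normalization, and that of Bcl2l11 without sgNSD3 replicate 1 or 3 or sgControl replicate 2. Of 17 genes of the unfolded protein response 1 rose and 3 fell (23.5% called), with a median of -0.05 (1 rose and 1 fell under quantile normalization). The sensor gene Ern1 rose 1.12-fold, and the chaperone genes Pdia4 and Calr and the transcription factor gene Xbp1 fell 1.12-fold, 1.07-fold and 1.09-fold (limma adjusted p = 0.00467, 0.000258, 0.0293 and 0.0406). The calls of Calr and Xbp1 were lost under quantile normalization and without any 1 sgNSD3 replicate, and also without sgControl replicate 3 for Calr and replicate 2 for Xbp1. The call of Xbp1 was lost, too, with no filter on low values and with limma voom.

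Of 13 tested growth arrest genes 2 rose and 2 fell (30.8% called, against 11.9% of all tested genes), with a median log2 difference of 0.01. Cdkn1a, the cell cycle inhibitor p21, had 550.8, 500.5 and 554.3 normalized counts in libraries labelled sgNSD3, against 696.7, 690.9 and 687.1 in libraries labelled sgControl, a 1.29-fold fall (limma adjusted p = 4.52e-05). Gas1 fell 1.15-fold, and Gas6, a ligand of TAM receptors, and Ndrg1 rose 1.29-fold and 1.12-fold (limma adjusted p = 0.000407, 0.00854 and 0.0174). The calls of Gas6 and Ndrg1 were lost without sgNSD3 replicate 2 or sgControl replicate 2. Among 21 tested partners of Cebpz, the NF-Y subunits and large-subunit assembly factors, the limma test called 0, with a median of -0.06. At an unadjusted p under 0.05 there were 4, and limma voom and the fit after quantile normalization also called 0. The most abundant were Nop56 (limma adjusted p = 0.0658) and Rrp1 (0.316).

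**Figure D5:**
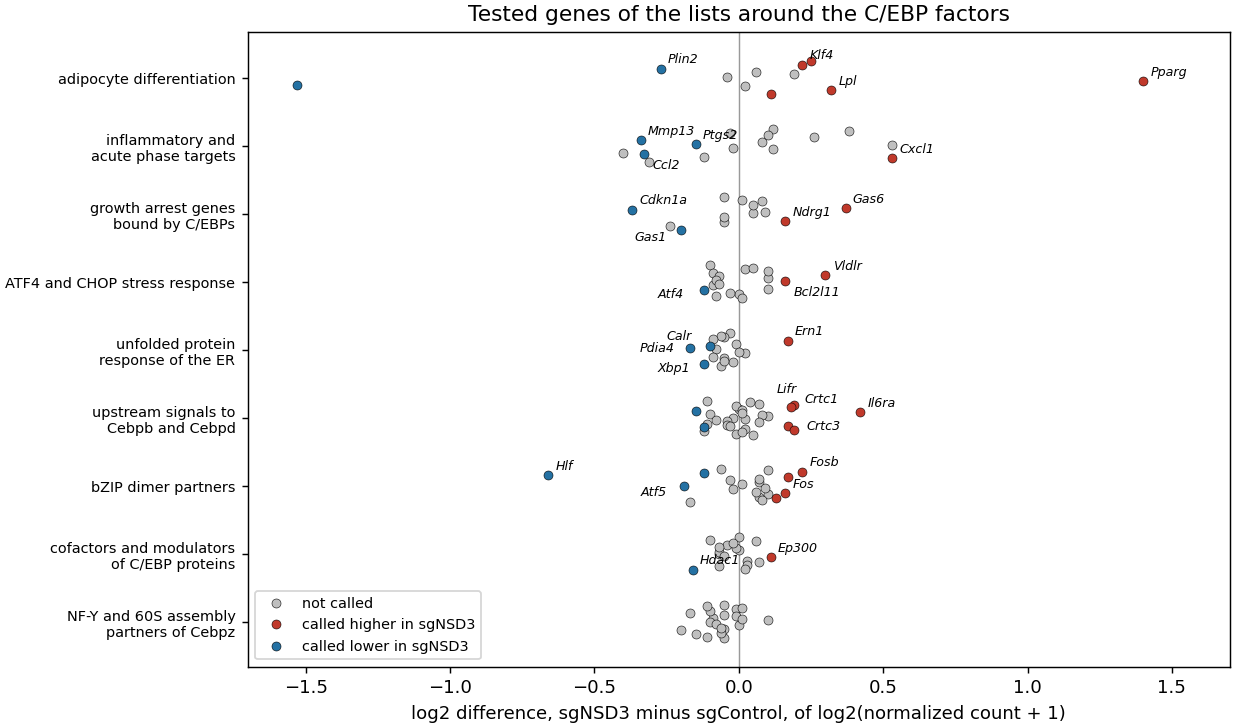
log2 difference, sgNSD3 minus sgControl, of each tested gene of 9 lists around the C/EBP factors (points spread vertically within a list only for legibility; red called higher, blue called lower, grey not called; named genes as chosen by rule). Pparg stands at 1.4, and the NF-Y and large-subunit list has no called gene.

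Markers of cell types in which C/EBP factors are best known were mostly low. The hepatocyte list summed to 19.18 to 26.39 normalized counts in libraries labelled sgNSD3 and 16.24 to 22.01 in libraries labelled sgControl, with Serpina1a, G6pc and Cyp7a1 at 0. The granulocyte and macrophage list summed to 255.3 to 266.9 and 262.9 to 271.8, with Csf3r, Ltf and Adgre1 at 0. Most of that sum came from Csf1r, the receptor for macrophage colony-stimulating factor. It had 174.7, 183.1 and 176 normalized counts in libraries labelled sgNSD3, against 158.8, 151.2 and 154.3 in libraries labelled sgControl. Cd68 and Lyz2 had lower means in libraries labelled sgNSD3, at 65.22 and 9.931, against 76.75 and 17.7 in libraries labelled sgControl. Mpo had means of 6.886 and 12.38, and passed the filter of 8 only through the libraries labelled sgControl. Of these 4 tested genes 0 were called. Of 9 tested fibroblast and mesenchymal genes 4 rose and 1 fell (55.6% called, against 11.9% of all tested genes). Under quantile normalization 3 rose and 2 fell. Fn1 rose 1.27-fold (limma adjusted p = 6.04e-08), and its call was lost in no alternative. The call of Col1a1 was lost under quantile normalization and without sgNSD3 replicate 1 or 2. That of Pdgfra, which fell, was lost without sgNSD3 replicate 1 or 2 or sgControl replicate 2. The call of Pdgfrb was lost without replicate 1 or 3 of either condition, and that of Thy1 without sgControl replicate 2. This list, led by Col1a1 and Fn1, summed to 1221835 to 1230537 in libraries labelled sgNSD3 and 1078613 to 1164270 in libraries labelled sgControl.

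The sums of the epithelial and endothelial marker lists also differed between the conditions, mostly through Krt19 and Kdr respectively. The epithelial list summed to 3087, 3072 and 3105 normalized counts in libraries labelled sgNSD3, against 4829, 4344 and 4270 in libraries labelled sgControl, with Epcam and Esrp1 at 0. Of its 4 tested genes 3 fell (75% called, against 11.9% of all tested genes, of which 6.44% fell). The keratin genes Krt19, Krt18 and Krt14 fell by 1.46-fold, 1.3-fold and 1.59-fold (limma adjusted p = 2.6e-10, 0.00192 and 0.000135). Cdh1, Krt5, Cldn4 and Cldn7 were under the filter. Most of the sum came from Krt19, with means of 2676 in libraries labelled sgNSD3 and 3911 in libraries labelled sgControl. The endothelial list summed to 197.4 to 237.8 in libraries labelled sgNSD3 and 119.8 to 144.5 in libraries labelled sgControl, through Kdr (1.66-fold, limma adjusted p = 4.68e-05), with Pecam1, Cdh5, Tie1 and Erg under the filter. In bulk RNA, fewer cells of a type and less RNA per cell cannot be told apart. Mitochondrial mRNA took 0.654%, 0.674% and 0.637% of counts in libraries labelled sgNSD3 and 0.651%, 0.808% and 0.864% in libraries labelled sgControl, with replicate 1 lowest, where Cebpb was lowest in replicate 2. The part of these differences in the Cebpb values was not tested.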

How the data were processed

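Total RNA was measured in 6 libraries (20294828 to 21863833 recovered reads each). The deposited RNA table holds log2 values from a variance-stabilizing transform, with 0 reads at 8.4511; HISAT2, featureCounts and DESeq2 and the build mm10 are named in the submitters' processing notes. From these values the transform was inverted to size-factor normalized counts, and whole reads were recovered (tolerance 0.05). The chromatin table holds 3 columns of signed scores per gene body, as the authors deposited them, with no conditions compared named; percentiles were computed from it.

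Deposited log2 values were tested with limma 3.58.1 (trend, R 4.3.3) on 18263 genes with a mean of at least 8 normalized counts, with Benjamini-Hochberg adjustment at 0.05. Changes on the deposited scale are compressed for low genes, and each fold therefore divides mean normalized counts, with log2 differences taken on log2(normalized count + 1). The test was tried on simulated data. Named list genes were up to 4 called ones per list with the largest difference on the deposited scale, or the 2 most abundant where none was called. Members and lists were chosen with earlier results of these data known. Equal replicate numbers gave no sign of paired libraries, and pairing was not excluded. Alternatives were no filter, quantile normalization, limma voom on recovered reads, log2(normalized count + 1), a replicate block and leaving out each library. IgG samples were not analysed here. Counting intervals cover counting error only. The window around Cebpb was narrowed to gene midpoints after a first version, and 1 gene near its edge is not reported here.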

Additional observations from a re-analysis of the deposited data

How the results depend on the processing

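Over the alternatives run, the Cebpb log2 difference lay between 0.53 without sgControl replicate 2 and 1.0 without sgControl replicate 3. Its lowest value labelled sgNSD3 exceeded its highest labelled sgControl, so leaving out a library could not change the sign. Nothing is read from the sign. Over all genes 994 were called higher and 1176 lower in libraries labelled sgNSD3. Leaving out 1 library gave 641 to 993 higher and 707 to 1164 lower. Without sgNSD3 replicate 1, 2 or 3 there were 645, 641 and 658 higher. Without sgControl replicate 1, 2 or 3 there were 988, 758 and 993 higher. Each of these fits had 1 library fewer, and the cause of the differences was not tested. With a replicate block by title number 1119 were higher and 1333 lower, and by column number 919 and 1086. Deviations of same-numbered libraries correlated at 0.054, 0.024 and -0.015 by title number, and at -0.084, -0.015 and -0.05 by column number. These values gave no sign of pairing. The libraries labelled sgNSD3 differed little from each other, so the check could not exclude it.

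Quantile normalization gave 7 higher and 1 lower among bZIP partners, 0 lower in the ATF4 and CHOP list, 1 lower in the unfolded protein response, 1 lower among upstream signals and 2 lower among fibroblast markers; the cause was not tested.

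Percentiles in the authors' deposited table depend on the background. Against gene bodies of like RNA level, H3K27me3 percentiles were 28.1 (Cebpa), 14.6 (Cebpb), 25.9 (Cebpg), 62.4 (Cebpz) and 64.5 (Ddit3). The first H3K36me2 column gave 55 (Cebpa), 33.9 (Cebpb), 10 (Cebpg), 93.9 (Cebpz) and 24.3 (Ddit3), and the second 95.2 (Cebpa), 98.5 (Cebpb), 2.3 (Cebpg), 96.1 (Cebpz) and 34.2 (Ddit3). Against all gene bodies, H3K27me3 percentiles were 25.5 (Cebpa), 18 (Cebpb), 23.7 (Cebpg), 48.9 (Cebpz) and 51.7 (Ddit3). The first H3K36me2 column gave 59.1 (Cebpa), 39.2 (Cebpb), 13.7 (Cebpg) and 29.4 (Ddit3), and the second 99 (Cebpb), 4 (Cebpg) and 39 (Ddit3). Against gene bodies of like length, a background chosen after seeing the data, H3K27me3 gave 12.3 (Cebpb), 27.8 (Cebpg), 55.1 (Cebpz) and 58.2 (Ddit3). The first H3K36me2 column gave 62.7 (Cebpa), 50 (Cebpb), 12.2 (Cebpg) and 30.7 (Ddit3), and the second 99.4 (Cebpb), 3.6 (Cebpg) and 39.8 (Ddit3).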
